A study of Mus musculus with 8 samples.

Results

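Immediate early genes are the genes that a neuron transcribes within minutes of strong synaptic activity, without needing new protein first. The 10 genes described here are Fos, Fosb, Junb, Egr1, Egr2, Egr3, Egr4, Arc, Npas4 and Nr4a1. They were chosen by symbol as classical members of this class, and every array probe whose RefSeq accession belongs to one of them was taken. Each gene had 1 such probe, so that the set held 10 of the 55681 probes on the array and 10 of its 20660 named genes, and all 10 passed the filter on dim probes.

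Calcium entering through NMDA receptors and voltage-gated channels activates kinases that phosphorylate CREB and the partners of serum response factor, and these bind the promoters of the immediate early genes. Most of the products are transcription factors that pass the signal on to later genes, whereas Arc acts at the synapse itself. The transcripts are short-lived, so their level in the hippocampus, a structure needed for forming new memories, is widely read as a record of recent neuronal activity. Handling, novelty, sleep and anaesthesia are known to change them as well.

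The samples were hippocampi of adult male Muta Mouse animals (a strain carrying a lacZ reporter transgene used for scoring mutations) aged 9 weeks. The exposed mice received benzo[a]pyrene (BaP), a polycyclic aromatic hydrocarbon of combustion products, at 70 mg/kg body weight per day in olive oil by oral gavage for 3 days, and control mice received the oil alone. Tissue was taken 24 hours after the last dose, under isoflurane, from all animals. There were 4 control and 4 BaP arrays, each from a different mouse, all on 1 slide. Each array compared hippocampal RNA, in the Cy5 channel, with a universal mouse reference RNA in Cy3, so that a value is the log2 ratio of a transcript in hippocampus to the same transcript in the reference.

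Before the values are given, 2 properties of the arrays need stating. The sample titles and the source names gave opposite groups for 4 of the 8 arrays, Control 3, Control 4, BaP 3 and BaP 4, which make up the second row of the slide. The titles were used, since the animal numbers in the labels run with them. Values under the other reading are given for the 10 genes and for some of the other genes and lists. By title, 3 probes were called and 5.06% of probes had groups that did not overlap. By source name no probe was called in limma (1430 had an unadjusted p of 0.05 or less, against 2855 by title) and 2.73% did not overlap. The array of Control 1 had 1483 spots marked as outliers, against 310 to 371 on the other arrays, and the highest median Cy5 signal, 174 against 108 to 147. All 10 hippocampal neuron markers (such as Prox1 of dentate granule cells and Wfs1 of CA1) were above background on all 8 arrays, but so were 6 of 7 neocortex, 5 of 6 thalamus and 9 of 10 choroid plexus markers, so that presence alone does not set the tissue apart from its neighbours. Of the hippocampal neuron markers 7 had a higher and 3 a lower mean in BaP mice, none called, with a median log2 fold change across the list of 0.18 and the largest values in Dsp (1.02) and C1ql2 (0.55), both of dentate granule cells. The mean of that list was 3.55 to 3.80 in control mice and 3.92, 4.08, 3.95 and 3.77 in BaP mice 1 to 4, of which BaP 4 alone lay among the controls. By source name the list again had 7 higher and 3 lower genes, with a median of 0.08, but Dsp (-0.32) and C1ql2 (-0.29) turned. All 10 choroid plexus markers had a higher mean in BaP mice, 8 of them by at least 1.5-fold, with overlap between the groups (mean log2 ratio of the list 2.20 to 4.02 in control and 1.65 to 5.07 in BaP mice). The overlap came from BaP 1, the lowest of all 8 mice at 1.65, as the other BaP mice lay at 4.59, 5.07 and 4.06, above every control. With the groups of the source names the direction turned, and all 10 had a lower mean in BaP mice (median -0.62, none without overlap). Neocortex markers overlapped as well (2.91 to 3.46 and 2.91 to 3.29). All 7 erythroid markers had a lower mean in BaP mice, 5 without overlap and 2 called, and the mean of the list was 3.98 to 4.15 in control and 3.15 to 3.44 in BaP mice, apart by title in both slide rows. Cldn5, a tight junction gene of brain endothelium named here after its values were seen, also stood apart by title in both rows, with 5.25 to 5.39 in control and 4.69 to 4.87 in BaP mice (limma adjusted p = 0.138). By source name Cldn5 had a difference of 0.05, and the erythroid list had 2 higher and 5 lower genes (median -0.08), none called. The part of blood, of tissue other than hippocampus and of the share of neurons in the values below was not tested, and fewer cells of a type and less RNA per cell cannot be told apart in such bulk samples.

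The promoters show what these genes share in sequence. RefSeq start-site windows (build GRCm38.p6, 250 bases before to 50 after the start) were at hand for 7 of the 10 genes: Fos, Fosb, Junb, Egr2, Egr4, Npas4 and Nr4a1. The 250 bases upstream of the start are shown for 4 of them: Fos and Fosb, the pair with the lowest p-values below, and Npas4 and Nr4a1, whose fold changes turned direction between the slide rows. Capitals mark the half-site of the cAMP response element bound by CREB, TGACG on either strand (its complement reads CGTCA). The Fos sequence lies at chr12:85473640-85473889 on the plus strand, that of Fosb at chr7:19310046-19310295 on the minus strand, that of Npas4 at chr19:4989972-4990221 on the minus strand and that of Nr4a1 at chr15:101266596-101266845 on the plus strand.
Fos: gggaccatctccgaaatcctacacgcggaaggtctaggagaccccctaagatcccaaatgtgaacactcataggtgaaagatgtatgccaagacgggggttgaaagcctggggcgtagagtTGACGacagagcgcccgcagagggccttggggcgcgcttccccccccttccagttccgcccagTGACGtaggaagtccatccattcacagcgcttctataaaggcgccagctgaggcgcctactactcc
Fosb: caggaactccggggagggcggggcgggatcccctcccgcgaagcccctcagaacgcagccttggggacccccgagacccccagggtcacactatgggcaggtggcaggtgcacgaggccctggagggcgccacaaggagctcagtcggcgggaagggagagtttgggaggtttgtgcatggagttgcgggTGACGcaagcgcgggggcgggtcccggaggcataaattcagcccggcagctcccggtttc
Npas4: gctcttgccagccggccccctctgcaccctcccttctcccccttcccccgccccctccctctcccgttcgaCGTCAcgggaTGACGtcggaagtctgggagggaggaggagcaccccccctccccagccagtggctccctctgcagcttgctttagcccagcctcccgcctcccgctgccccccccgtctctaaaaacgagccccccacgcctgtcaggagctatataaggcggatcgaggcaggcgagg
Nr4a1: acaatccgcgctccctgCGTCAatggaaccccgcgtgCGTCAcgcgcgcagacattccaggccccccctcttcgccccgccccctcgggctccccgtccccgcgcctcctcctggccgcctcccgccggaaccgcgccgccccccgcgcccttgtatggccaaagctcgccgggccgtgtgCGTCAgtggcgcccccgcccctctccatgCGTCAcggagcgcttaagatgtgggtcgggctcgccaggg

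At least 1 half-site stood in a window of all 7 genes, against 23.0% of all 27025 genes with such a window. Counted by window, which matters because Egr2 has 5 of them, 9 of 11 windows held it, against 20.8% of 32851. Fos carried it 129 and 66 bases before the start, Fosb 60 bases before it, and Nr4a1 at 4 places, 233, 213, 69 and 40 bases upstream. In Npas4 the 2 half-sites began 179 and 169 bases upstream. The full palindrome TGACGTCA was in none of the 7 genes and in 2.03% of all genes. The binding sequence of the EGR proteins, GCGGGGGCG or its complement, was in Fosb and Nr4a1 and in 3.31% of all genes, and the CArG box of serum response factor was in Egr2 alone among the 7 and in 1.81% of all genes. The 4 sequences shown hold between 58.4% (Fos) and 74.4% (Nr4a1) G and C, base composition was not taken into account in the search, and a match is a description of the letters.

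Against the reference RNA the 10 transcripts spanned a wide range in control mice. The mean log2 ratio was 5.30 ± 0.24 (SD, n = 4) for Egr4, 3.53 ± 0.38 for Arc and 1.57 ± 0.53 for Npas4. It was 0.14 ± 0.13 for Egr3, 0.03 ± 0.41 for Nr4a1, -1.23 ± 0.51 for Egr1, -1.58 ± 0.11 for Junb, -1.77 ± 0.18 for Fosb, -1.91 ± 0.32 for Egr2 and -2.92 ± 0.37 for Fos. Going down this order, Egr3 and Nr4a1 lay closer than the sum of their SDs, as did each neighbouring pair from Egr1 to Egr2, whereas the other steps were larger. This is an order of ratios to the same probe in the reference and not of transcript levels. Egr3 was dim, with its Cy5 signal well above background on 2 of the 4 control arrays, and the offset of 50 added to both channels draws such a ratio toward 0. The ratio of Egr4 also rests on a reference signal that was not well above background on any of the 8 arrays.

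Between BaP and control mice none of the 10 genes passed the test, which asked for a limma adjusted p of 0.05 or less and a fold change of at least 1.5. Over the whole array 3 of 32597 probes passed it, or 0.0092%, all of them lower in BaP mice. Of the 10 genes, 6 had a lower mean in BaP mice, against 51.2% of all probes, and the median of their log2 fold changes was -0.13, against 0.00 over all probes. The median of the 10 was -0.03 without Control 1, -0.21 without Control 2, -0.26 with the scanner's processed signals and -0.26 within slide row 1, where 9 of the 10 were lower. With median centring it was 0.07, against 0.17 over all probes, and with groups by source name -0.05. Within slide row 2 it was -0.10, with 6 of the 10 genes lower. An unadjusted limma p of 0.05 or less was reached by 2 of them, Fos and Fosb, both lower, where 8.76% of all probes reached it in either direction and 4.23% on the lower side. The share over all probes was 5.31% without BaP 2, where 1 of the 10 genes reached it, and 18.6% with median centring, where none did. None of the 10 genes had groups that did not overlap, which 5.06% of all probes had.

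**Figure D1:**
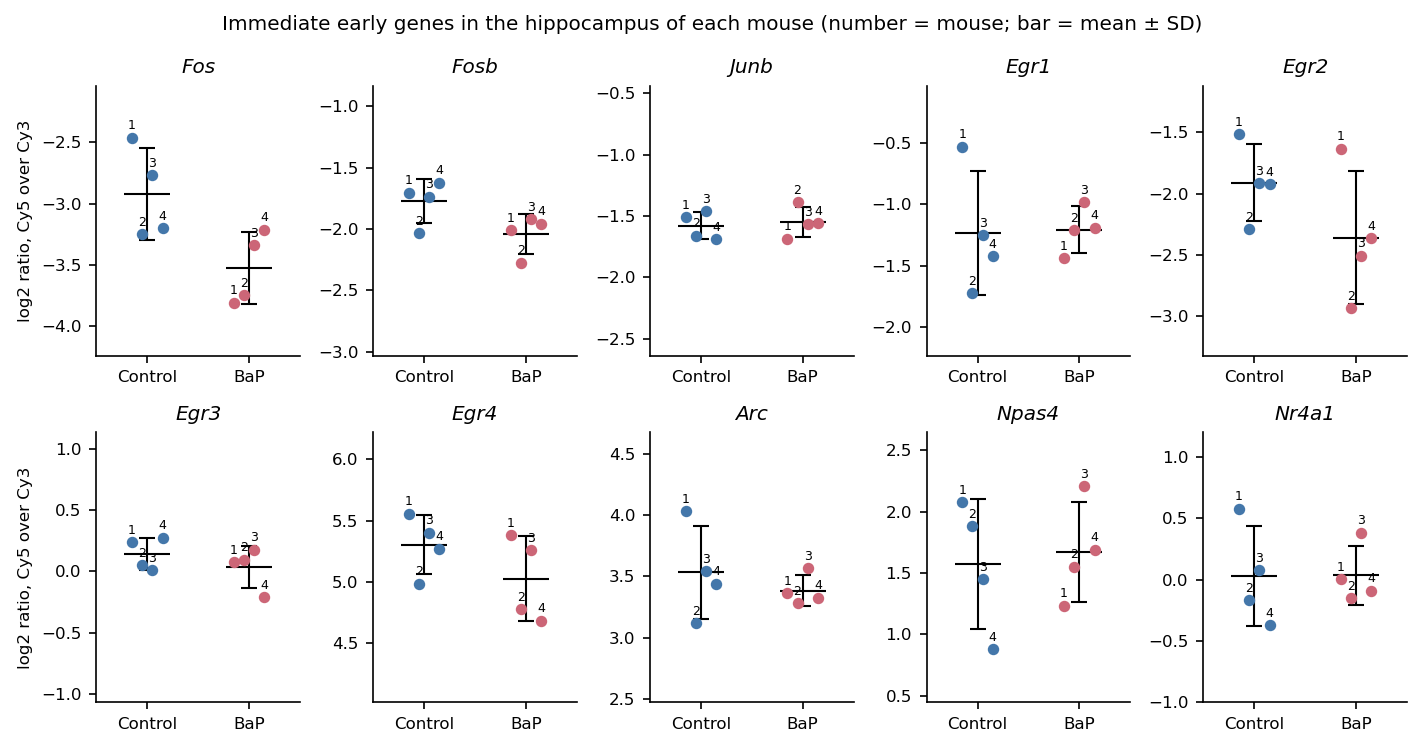
Log2 ratio of hippocampal (Cy5) over reference (Cy3) RNA for each immediate early gene, 1 point per mouse, numbered as in the text, in 4 control and 4 BaP mice; bars are the mean ± SD, and every panel spans the same number of log2 units. The groups overlap in all 10 panels, and Fos has the largest distance between the means, -2.92 against -3.53.

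Fos encodes the c-Fos subunit of the AP-1 transcription factor and is the gene most used to mark activated neurons. Its log2 ratio was -2.46, -3.25, -2.77 and -3.20 in control mice 1 to 4 and -3.80, -3.75, -3.34 and -3.21 in BaP mice 1 to 4. BaP mice 1, 2 and 3 lay below every control mouse, and BaP 4 lay between the controls. The difference was -0.61 on the log2 scale (SE 0.20, 95% interval -1.04 to -0.17), a level in BaP mice 0.657 times that of the controls. It did not pass the test (limma adjusted p = 0.498, unadjusted p = 0.0110), and the exact 2-sided permutation test over the 70 ways to divide the mice gave p = 0.0571, where 0.0286 is the smallest value it can give. Without Control 1 the difference was -0.45. Within the slide rows it was -0.92 in row 1 and -0.29 in row 2, and with the groups taken from the source names it was -0.31 (limma adjusted p = 0.918).

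Fosb encodes FosB and its truncated, long-lived form ΔFosB, which builds up with repeated stimulation, and the probe does not tell these apart. Its log2 ratio was -1.70, -2.04, -1.74 and -1.62 in control and -2.01, -2.28, -1.92 and -1.96 in BaP mice. All 4 BaP mice lay below Control 1, 3 and 4, while Control 2 lay among them. The difference was -0.27 (SE 0.11, 95% interval -0.52 to -0.01), with a limma adjusted p of 0.564 and an unadjusted p of 0.0429, and the exact permutation test gave p = 0.114. It was -0.27 and -0.26 within the slide rows, but 0.00 with median centring, which raised all probes by a median of 0.17, and -0.01 with the groups of the source names. Junb encodes JunB, a partner of the Fos proteins in AP-1. Its ratio lay between -1.69 and -1.46 in control and between -1.68 and -1.39 in BaP mice, a difference of 0.03 (SE 0.09, 95% interval -0.18 to 0.23).

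The 4 EGR genes encode zinc-finger transcription factors with nearly the same DNA-binding domain. Egr2, also known for its part in myelination, had log2 ratios of -1.51, -2.29, -1.91 and -1.92 in control and -1.63, -2.93, -2.51 and -2.36 in BaP mice. BaP 1 was higher than 3 of the controls and the other BaP mice were lower than all controls. The difference of -0.45 (SE 0.25, 95% interval -1.005 to 0.107) did not pass the test (limma adjusted p = 0.624). It was -0.26 without BaP 2, -0.69 without BaP 1 and -0.74 with the scanner's processed signals, and passed under none of these. Egr4, which is largely restricted to neural tissue, had ratios of 5.56, 4.99, 5.40 and 5.27 in control and 5.38, 4.78, 5.26 and 4.69 in BaP mice. Its difference was -0.28 (SE 0.18, limma adjusted p = 0.655), with -0.16 in the Cy5 channel alone, which leaves out the dim reference, and -0.62 with the scanner's processed signals. Leaving out 1 mouse at a time gave -0.39 (without BaP 1) to -0.16 (without BaP 4).

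Egr1, needed for the late phase of long-term potentiation and for lasting memory, had log2 ratios of -0.53, -1.73, -1.25 and -1.42 in control and -1.44, -1.21, -0.98 and -1.19 in BaP mice. Control 1 was the highest of all 8 mice and Control 2 the lowest, and the BaP mice lay between them. The difference was 0.03 with a 95% interval of -0.46 to 0.51, which reaches about equally far on both sides of 0. Egr3, a feedback target of Egr1, was dim: its Cy5 signal was well above background on 2 of 4 control and 3 of 4 BaP arrays. Its ratio lay between 0.01 and 0.27 in control and between -0.21 and 0.18 in BaP mice, a difference of -0.11 (SE 0.11, limma adjusted p = 0.779), -0.36 with the scanner's processed signals and -0.03 without BaP 4.

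Arc encodes a protein that promotes the removal of AMPA receptors from synapses and can form virus-like capsids. Its log2 ratio was 4.03, 3.12, 3.54 and 3.44 in control and 3.36, 3.28, 3.57 and 3.33 in BaP mice. The BaP mice lay within the range of the controls, and the difference was -0.15 (SE 0.17, 95% interval -0.52 to 0.22). Without Control 1 it was 0.02. Nr4a1 encodes the orphan nuclear receptor Nur77. It had ratios of 0.58, -0.17, 0.07 and -0.37 in control and 0.00, -0.15, 0.38 and -0.09 in BaP mice. The BaP mice again lay inside the range of the controls, with a difference of 0.01 (SE 0.19, 95% interval -0.42 to 0.44).

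Npas4 encodes a transcription factor that responds to calcium influx in neurons and controls inhibitory synapses. Its log2 ratio was 2.08, 1.88, 1.45 and 0.88 in control and 1.23, 1.55, 2.21 and 1.69 in BaP mice, and the 2 groups spread over almost the same range. The difference was 0.10 (SE 0.27, 95% interval -0.49 to 0.69, limma adjusted p = 0.935). It ran in opposite directions in the 2 rows of the slide. In row 1 both BaP mice were lower than both controls, a difference of -0.59, and in row 2 both were higher, a difference of 0.78.

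**Figure D2:**
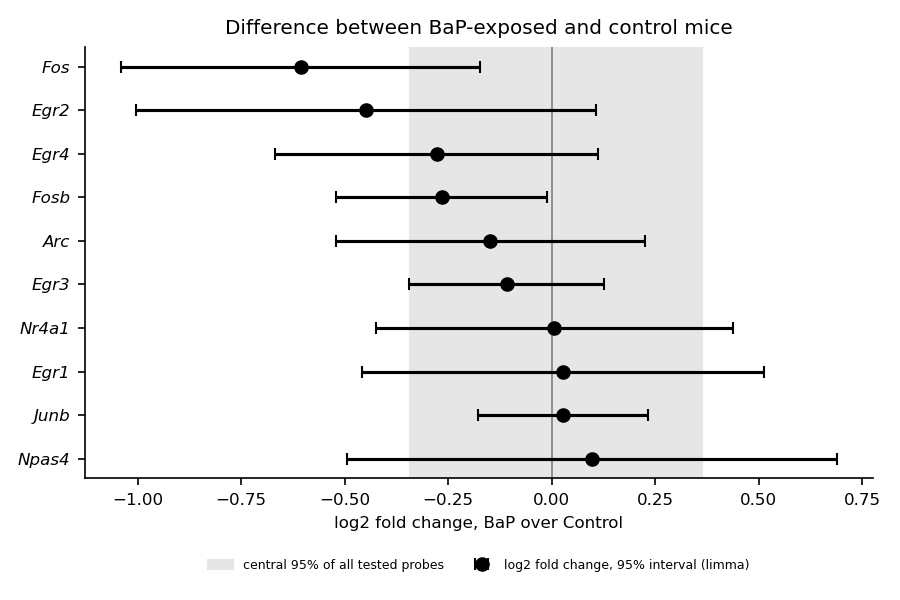
Log2 fold change of BaP over control mice for each gene with its 95% interval from limma; the grey band holds the central 95% of the fold changes of all tested probes, -0.34 to 0.36. The intervals of Fos and Fosb lie below 0 and the other 8 intervals include it.

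The change of direction between slide rows was examined for all 10 genes, since the 4 arrays with conflicting labels make up row 2. Besides Npas4, it was seen in Egr1 (-0.20 in row 1 and 0.25 in row 2) and Nr4a1 (-0.28 and 0.29). The rows differed in the fold change of Npas4 by 1.37 (SE 0.34, unadjusted p = 0.00350 in limma), which did not pass over the 32000 probes for which this could be fitted (adjusted p = 0.890). No probe had an adjusted p of 0.05 or less for this difference in limma, 1502 (4.69%) had an unadjusted one, and Npas4 was the only one of the 10 genes among them. Exchanging the labels of row 2, as the source names do, turns a difference between rows into a difference between groups, so that the value of -0.69 for Npas4 under that reading (limma adjusted p = 0.918, groups without overlap) restates the reversal and is no separate result. The same reading gave Egr1 a difference of -0.22 and Nr4a1 one of -0.29, and Egr2, Egr3 and Egr4 small positive ones of 0.07, 0.05 and 0.09.

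**Figure D3:**
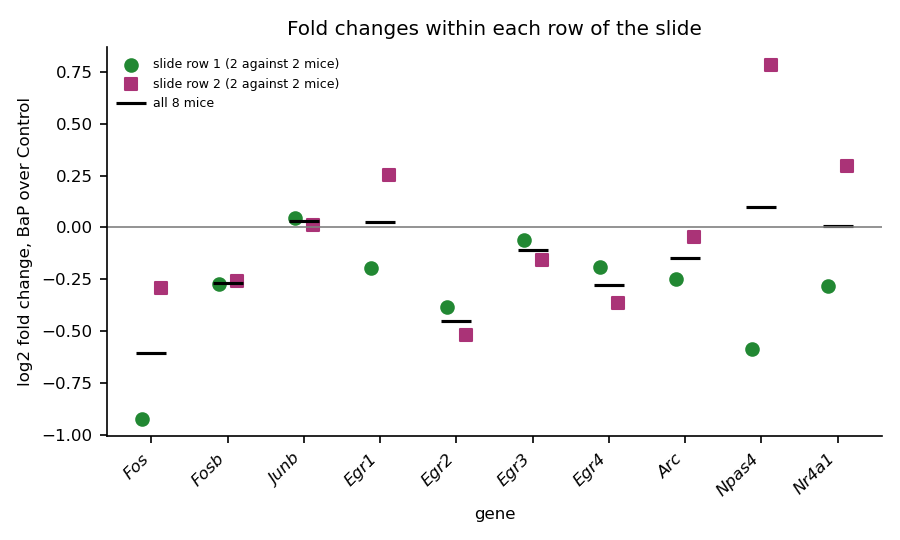
Log2 fold change of BaP over control mice within slide row 1 (circles, mice 1 and 2 of each group) and slide row 2 (squares, mice 3 and 4), with the value over all 8 mice as a dash. Npas4 lies at -0.59 in row 1 and 0.78 in row 2, and Fosb nearly coincides at -0.27 and -0.26.

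The immediate early genes differed more between mice of one group than most transcripts did. Their median within-group SD was 0.32 on the log2 scale, larger than that of 92.1% of all tested probes, whose median was 0.15. The SD exceeded this median in 9 of the 10 genes, Junb being the exception with 0.12, and 6 genes had an SD that fewer than 10% of all probes exceeded. Npas4 was the most variable, with an SD of 0.47 that 2.46% of probes exceeded, followed by Egr2 (0.44, exceeded by 2.99%), Egr1 (0.38, by 4.47%), Fos (0.34, by 6.56%), Nr4a1 (0.33, by 6.68%) and Egr4 (0.30, by 9.30%). Set against probes of like mean brightness on the arrays, the SD was exceeded by 1.72% of probes for Egr1, 2.61% for Nr4a1, 3.56% for Npas4, 4.30% for Egr2, 7.33% for Arc and 9.29% for Fos, but by 13.9% for Egr4, 43.0% for Fosb, 51.3% for Egr3 and 80.2% for Junb. Part of this spread rests on 1 mouse. Without Control 1 the SD of Egr1 was 0.21 and that of Arc 0.17, against 0.38 and 0.28 with it, the median of the 10 genes was 0.22, larger than that of 80.2% of probes, and 3 genes (Npas4, Egr2 and Egr4) had an SD that fewer than 10% of probes exceeded. The SD over all 8 arrays was larger in the Cy5 channel, that of the hippocampal RNA, than in the Cy3 channel for 9 of the 10 genes, and for 81.3% of all tested probes. Cy3 held the same reference RNA on every array, so this compares mice with repeats of 1 RNA, and array-wide differences between the channels were not separated from it. It was 0.32 and 0.05 for Egr1, 0.38 and 0.04 for Fos, 0.44 and 0.06 for Npas4 and 0.27 and 0.14 for Egr4, and nearly alike for Egr3, with 0.12 and 0.09. Junb had 0.29 in both channels.

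Some mice deviated from their group the same way in most of the genes. Control 1 lay above the mean of its group for all 10 genes, by 0.36 on average, and was the highest of the controls in 7 of them and of all 8 mice in 6. Over all tested probes its array lay above the group mean in 46.1% only. Control 2 lay below the mean for 9 genes, all but Npas4, and Control 4 for 8 (over all probes these arrays lay above it in 49.3% and 49.6%). Since deviations within a group sum to 0, the high values of Control 1 put the other controls below the mean on average. BaP 2 lay below it for 8 genes (above it for 54.4% of all probes). BaP 3 lay above it for 8 genes (48.0% of all probes) and was the highest of the BaP mice in 6. The other 3 mice showed no such lean: Control 3 lay above the mean for 6 genes and below it for 4, and BaP 1 and BaP 4 each above it for 4 and below it for 6. Control 1 is also the array with most outlier spots, and the part of its quality in these values was not tested.

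**Figure D4:**
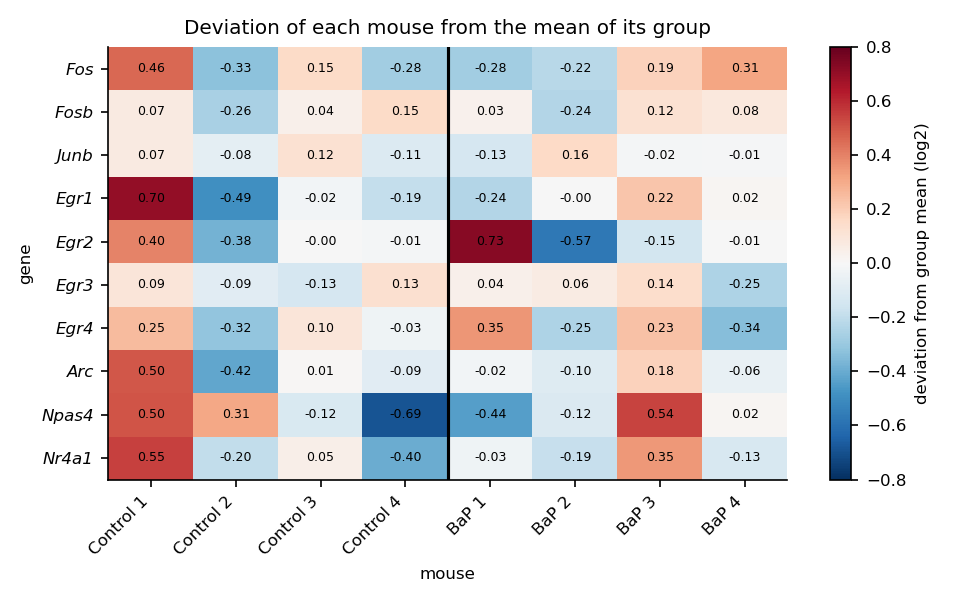
Deviation of the log2 ratio of each mouse (columns, the line divides control from BaP mice) from the mean of its group for each gene (rows), in log2 units, red above and blue below the mean. The column of Control 1 is positive for all 10 genes and reaches 0.70 for Egr1, while that of Control 2 is negative for all but Npas4.

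Arc followed the rest of the set most closely. Over the 8 arrays its log2 ratio had a Pearson r of 0.96 with the mean of the other 9 standardized genes, ahead of Nr4a1 (0.79), Egr1 (0.77), Fos (0.72) and Egr4 (0.69). Fosb (0.53), Egr2 (0.45), Egr3 (0.36) and Npas4 (0.28) followed it less, and Junb hardly (0.08). These values lean on Control 1. Without it Arc had an r of 0.89, Egr4 one of 0.56, Nr4a1 0.53, Fosb 0.44, Egr1 0.40 and Fos 0.36, and Egr2, Egr3, Npas4 and Junb lay between -0.07 and 0.07. Among 14863 other genes the 5 most like the mean of the set were Eif1 (r = 0.97), a translation initiation factor, Ciao2a (0.95), which takes part in iron-sulfur protein assembly, Tnnc2 (0.94), the troponin C of fast skeletal muscle, Ankrd44 (0.94) and Sash1 (0.94). Without Control 1 these were between 0.80 and 0.89. These values are a description over 8 arrays that share a slide and a reference and were drawn from many candidates, and no test was made of them.

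The wider activity-induced program held no gene that passed the test. Of 22 other rapid transcription factors 7 were higher and 15 lower in BaP mice, and the median of the list was -0.07 on the log2 scale. The lowest were Nr4a2, the nuclear receptor Nurr1 (-0.55, SE 0.26), Fosl2 (-0.44, SE 0.22) and Jun (-0.44, SE 0.14), the last 2 being AP-1 subunits like Fos. The log2 ratio of Jun was -0.12, 0.19, 0.24 and 0.00 in control and -0.37, -0.40, -0.66 and -0.01 in BaP mice, so that, as for Fos, BaP 4 alone lay among the controls (limma adjusted p = 0.498). The highest were Cebpd, a factor of inflammatory and hormone responses (0.62, SE 0.16), the clock-linked repressor Bhlhe40 (0.40, SE 0.11) and Csrnp1 (0.27, SE 0.10). These last 3 did not overlap between the groups, with limma adjusted p of 0.467, 0.478 and 0.515. In this list 7 of 22 genes had an unadjusted limma p of 0.05 or less, 3 higher and 4 lower, against 8.76% of all probes, and 4 of 22 did not overlap, against 5.06%. Nfil3, a circadian repressor named here after its values were seen, was the other gene of this list without overlap, with a difference of -0.33 (limma adjusted p = 0.448).

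Of the 18 feedback regulators, which switch the inducing signals off, 16 were tested, 10 being higher and 6 lower with a median of 0.04. The kinase Plk2 (0.34), the MAP kinase phosphatase Dusp4 (0.31) and Trib1 (0.23, but 0.00 by its other probe) were the highest, and Rgs4 (-0.15, and -0.42 by its other probe), Sik1 (-0.11) and Pim1 (-0.05) the lowest. Among 18 synaptic and secreted effectors 11 were higher and 7 lower, with a median of 0.06. Arl4d, a small GTPase, had log2 ratios of 0.60, 0.09, 0.41 and 0.35 in control and 1.22, 1.21, 1.46 and 0.81 in BaP mice. All 4 BaP mice were higher than the controls, by 0.81 (SE 0.15, limma adjusted p = 0.279), and a second probe gave 0.95. Bdnf, the neurotrophin that is a main target of Npas4 and CREB, had a difference of 0.32 (SE 0.10, adjusted p = 0.499) and Ptgs2, the inducible cyclooxygenase, one of 0.19. Plat, the tissue plasminogen activator, was lower without overlap by 0.24 (adjusted p = 0.529), followed by Gadd45b (-0.19) and Vgf (-0.17).

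The 20 upstream regulators, which carry the calcium signal to the promoters, had 9 higher and 11 lower genes and a median of 0.00. They ranged from the calcineurin subunit Ppp3ca (0.40, SE 0.17), the serum response factor partner Mrtfb (0.22, but 0.01 by its other probe) and Mef2a (0.15) to the kinase Rps6ka5 (-0.23), the CREB coactivator Crtc1 (-0.16) and Camk4 (-0.11, with 0.27 by another of its probes). An unadjusted limma p of 0.05 or less was reached by 0 of the 16 feedback regulators, 3 of the 18 effectors (2 higher, 1 lower) and 2 of the 20 upstream regulators (both higher). A list of 10 genes induced by glucocorticoids, hormones released in stress, stands beside these because stress also changes immediate early genes. Of these 8 were higher and 2 lower, with a median of 0.15, and none passed the test. Sgk1 had a difference of 1.27 (limma adjusted p = 0.260) and Nfkbia one of 0.78 (adjusted p = 0.147), both without overlap, and Tsc22d3 one of 0.41 (adjusted p = 0.5003). Per1, a clock gene named here after its values were seen, was the third without overlap (0.37, adjusted p = 0.490). This unadjusted p was reached by 6 of the 10, 5 higher and 1 lower (Cdkn1a), against 8.76% of all probes, and 3 of 10 did not overlap, against 5.06%. Like the other lists, this one was chosen with earlier results of these data known, so such counts are no test of it. The part of stress in these values was not tested. Cdkn1a (-0.28), Sult1a1 (-0.01) and Errfi1 (0.00) were the lowest. With the groups of the source names these differences were mostly smaller. Arl4d had 0.06, Cebpd -0.03, Bhlhe40 0.02, Csrnp1 0.13, Jun 0.02, Nr4a2 -0.26, Sgk1 0.31, Nfkbia 0.08 and Per1 -0.05, none without overlap. Ppp3ca had -0.10, Plk2 0.01, Dusp4 -0.06, Bdnf 0.07, Fosl2 0.08, Nfil3 -0.04 and Plat -0.09, also with overlap. Ptgs2 (0.29) and Mef2a (0.24) had larger differences than by title, with overlap. Zbtb16 (0.16), named here after its values were seen, was the only glucocorticoid-induced gene without overlap under that reading. An unadjusted limma p of 0.05 or less was then reached by 0 of the 22 rapid transcription factors and 0 of the 10 glucocorticoid-induced genes, against 4.39% of all probes.

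**Figure D5:**
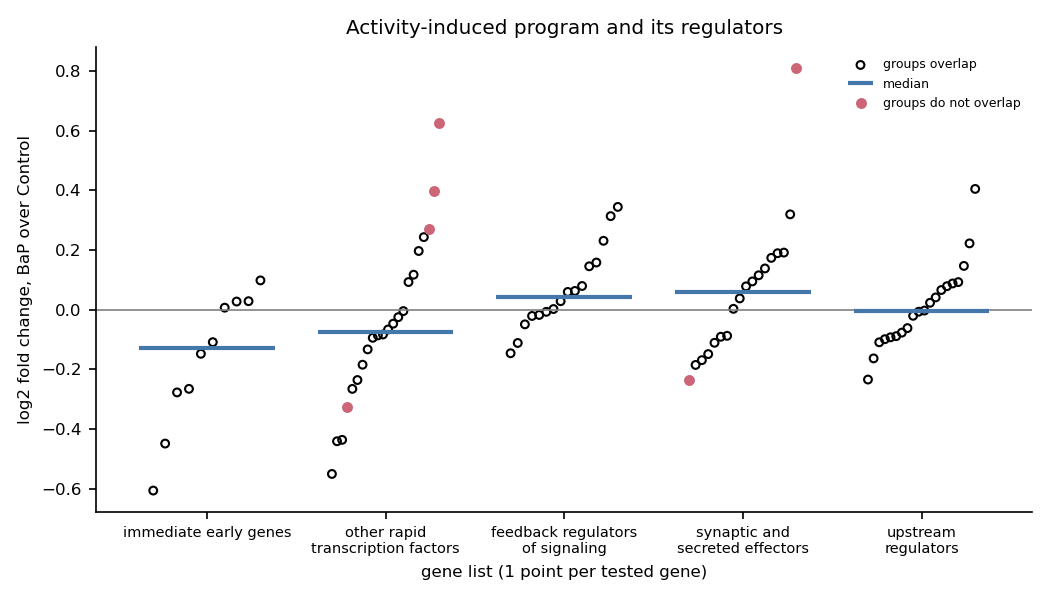
Log2 fold change of BaP over control mice for each tested gene of the activity-induced program, by list; filled points are genes whose groups do not overlap, and the horizontal bar is the median of the list. The medians lie between -0.13 (immediate early genes) and 0.06 (synaptic and secreted effectors), and the highest point is Arl4d at 0.81.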

How the data were processed

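Hippocampal RNA of 4 control and 4 BaP mice was hybridised by the authors with a common reference to 2-colour arrays without dye swap. The deposited scanner files (Agilent Feature Extraction 11.0.1.1) hold spot and background intensity, and a deposited table holds the authors' LOWESS-normalized log2 ratios, whose centring is not stated. It correlated with the values computed here at r of 0.998 to 0.999 per array, with medians of -0.05 to -0.03 over all its probes and -0.04 to 0.004 over the tested ones, and served as an alternative. Spot medians were corrected with normexp (offset 50) and normalized by loess within arrays in limma 3.58.1 (R 4.3.3), leaving out control and outlier spots, with replicate spots averaged. The test covered the 32597 of 55681 probes that had 2 or more values per group and a Cy5 signal well above background on 4 or more of the 8 arrays, with Benjamini-Hochberg adjustment over all of them. The brightest tested probe stood for a gene. Probes were named through RefSeq accessions (27235 of 28685 probes with an accession, 94.9%). The fit was tested on simulated data.

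Groups came from the sample titles. Members and lists were chosen with earlier results of these data known. Named genes were the 10 immediate early genes and the 5 most like the mean of the set. From each other list of the activity-induced program and from the glucocorticoid-induced list, the 3 highest and 3 lowest were named. Of the marker lists only a few genes were named, and other genes named after their values were seen are marked as such. Alternatives covered background, normalization, filter, fit, blocks, slide row, labels and each mouse left out. The test between slide rows and the SD and correlations without Control 1 were added after the values were seen. The number of arrays, 4 per group, limits the precision.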

Additional observations from a re-analysis of the deposited data

How the results depend on the processing

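None of the 10 immediate early genes passed the test under any alternative, and Fos stayed lower in BaP mice under all of them. Fosb did not turn, but its difference was near 0 with median centring and with groups by source name (-0.01). Fos ranged from -0.92 (slide row 1) to -0.29 (slide row 2) and Fosb from -0.35 to 0.00, the latter after median centring, which moved the median of all probes from 0.00 to 0.17 and that of the 10 genes from -0.13 to 0.07, so that Fosb and the median of the 10 genes still lay below that of all probes, while Junb, Egr1, Npas4 and Nr4a1 lay above it. Leaving out 1 mouse at a time gave Fos -0.72 to -0.45 and Fosb -0.35 to -0.19, and a limma adjusted p of at least 0.281 for Fos. Directions turned for 8 genes: Junb to -0.0053 without background correction, to -0.042 with the scanner's processed signals and to -0.013 with the authors' ratios; Arc to 0.13 with median centring; Egr1, Npas4 and Nr4a1 to -0.20, -0.59 and -0.28 within slide row 1; and, with groups by source name, Egr1 to -0.22, Npas4 to -0.69, Nr4a1 to -0.29, Egr2 to 0.068, Egr3 to 0.050 and Egr4 to 0.086. With 1 mouse left out, Junb ranged from -0.025 to 0.073, Egr2 from -0.69 to -0.26, Egr3 from -0.16 to -0.03, Egr4 from -0.39 to -0.16, the median of the 10 genes from -0.21 to -0.03, Egr1 from -0.14 to 0.26, Arc from -0.29 to 0.018, Npas4 from -0.13 to 0.27 and Nr4a1 from -0.13 to 0.19. The cause was not tested.

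The number of the 10 genes with an unadjusted p of 0.05 or less was 1 with processed signals, with the Cy5 channel alone, with a gene-wise F test and with groups by source name, 0 with median centring, and 1 to 3 with a mouse left out. The number of the 10 lower in BaP mice was 5 to 10 with a mouse left out, 10 without Control 4. Probes called lower over the array numbered 0 with processed signals, the F test, either slide row alone and the source names, 5 without the filter, 6 with Cy5 alone, 5 with a robust fit (which also called 2 higher), and 1 to 3 with a mouse left out. It was 1 without Control 1, Control 3, Control 4 or BaP 2. Egr3 was not tested where all 8 arrays had to be above background. Over the tested probes same-numbered mice of the 2 groups did not deviate together (r of -0.35 to 0.03), but these few correlations cannot exclude a pairing. With the replicate block 4 of the 10 reached this unadjusted p, namely Fos, Fosb, Egr2 and Egr4, and 3 probes were called lower. The SE of Egr2 was then 0.11, against 0.25 without the block (limma adjusted p = 0.664 with it).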
